A study of Mus musculus with 8 samples.

Results

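Small RNAs of NIH-3T3, a mouse fibroblast line of embryonic origin that stops dividing once the culture is dense, were compared between day 3 of contact inhibition and day 0. According to the labels, the day 3 library came from arrested cells in G0 and the day 0 library from asynchronous cells. Both came from cells passaged in DMEM with 10% serum, plated at 12% confluency and kept in replaced medium, in a culture that ran for 5 days. The series held 8 libraries in all, and 2 of them form this comparison, 1 for each day. A day 5 library of the same culture experiment is given beside them, and 5 libraries of serum-starved and released cells served only to define the arms and for a scaling over all 8 libraries. Of 690 mature miRNA arms with reads in the series, the 154 with at least 100 reads on day 3 or on day 0 were measured. There are no replicates, so no test was possible, and every interval below covers counting error only.

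A miRNA is cut from a hairpin that can yield a mature arm from either side, called 5p and 3p. Once loaded into an Argonaute protein, the arm pairs with messenger RNAs mainly through its seed, bases 2 to 8, and lowers their stability and translation, so that miRNAs with a common seed share many targets. In fibroblasts, miRNAs of the miR-15/16, miR-34 and let-7 families are known as repressors of cell-cycle genes such as cyclins and Cdc25a, while the miR-17 to miR-92 cluster is activated by Myc and favours proliferation.

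The mature sequences below are those of the families on which the results turn, taken from RefSeq (GRCm38.p6) and grouped by seed, which is in capitals. For 130 of the 154 arms a RefSeq mature sequence that starts at the counted base was matched. The let-7 family, whose members moved apart from each other although they share a seed, comes first.
let-7a-5p: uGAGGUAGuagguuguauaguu
let-7d-5p: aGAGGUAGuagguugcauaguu
let-7f-5p: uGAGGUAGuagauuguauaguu
miR-98-5p: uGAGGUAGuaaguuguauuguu
The next 4 arms share the miR-15/16 seed, and miR-503-5p, from the hairpin next to that of miR-322, has a closely related seed.
miR-15a-5p: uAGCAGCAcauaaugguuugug
miR-15b-5p: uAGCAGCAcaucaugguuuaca
miR-16-5p: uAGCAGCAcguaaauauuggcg
miR-322-5p: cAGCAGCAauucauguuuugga
miR-503-5p: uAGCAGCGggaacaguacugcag
The miR-34, miR-29, miR-130 and miR-301 families held arms with some of the highest day 3 over day 0 ratios.
miR-34a-5p: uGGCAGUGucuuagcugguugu
miR-34b-5p: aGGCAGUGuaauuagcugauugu
miR-29a-3p: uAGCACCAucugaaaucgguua
miR-29b-3p: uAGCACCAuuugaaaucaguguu
miR-29c-3p: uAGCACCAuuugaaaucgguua
miR-130a-3p: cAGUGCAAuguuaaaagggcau
miR-301a-3p: cAGUGCAAuaguauugucaaagc
Among the arms that were lower on day 3 were the opposite arm of the miR-29b-1 hairpin, an imprinted-locus miRNA, and a sequence made almost wholly of u and g.
miR-29b-1-5p: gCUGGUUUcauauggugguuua
miR-127-3p: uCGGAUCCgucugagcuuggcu
miR-574-5p: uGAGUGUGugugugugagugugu

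The day 3 library held 763334 reads and the day 0 library 707202, of which 571945 and 463783 gave inserts of 16 to 30 nt. Reads without a recognisable 3′ adapter made up 23.3% of the day 3 library and 32.3% of the day 0 library. Mature miRNA arms took 438554 reads on day 3 and 326376 on day 0, and 17.97% of day 3 inserts and 25.6% of day 0 inserts matched none of the small RNA classes searched. Of the reads of miR-24-3p with at most 1 mismatch, those with 1 mismatch made up 3.56% on day 3 and 5.25% on day 0. The part of these library differences in the ratios was not tested.

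The fibroblast label was set against marker miRNAs. The fibroblast or mesenchymal list, which includes miR-199a, miR-214, miR-143 and miR-21a, summed to 45920 reads on day 3 and 20103 on day 0, and every member had reads. Epithelial markers summed to 5 reads on day 3 and 2 on day 0, with miR-200a-3p, miR-200b-3p, miR-141-3p and miR-429-3p at 0 in both libraries. Blood markers summed to 4 reads in each library, with miR-142a and miR-150-5p at 0, and the liver marker miR-122-5p was at 0, where a count of 0 allows up to 3 reads. The pluripotent or germ line list summed to 36 reads on day 3 and 32 on day 0. The muscle list, nearly all of it miR-206-3p, had 88 reads on day 3 and 193 on day 0, while miR-133a-3p, miR-133b-3p, miR-208a-3p and miR-499-5p were at 0. Of the neural list, miR-124-3p and miR-137-3p were at 0, while miR-128-3p had 40 reads on day 3 and 42 on day 0. miR-9-5p, which is abundant in brain, had 153 reads on day 3 and 44 on day 0, a scaled day 3 over day 0 ratio of 2.42 (95% counting interval 1.72 to 3.46), and miR-9-3p had 71 on day 3 and 22 on day 0. Most of the list's 1267 reads on day 3 and 549 on day 0 came from miR-7a-5p, which many tissues express. The part of these markers in the results was not tested. The libraries hold no readout of the cell cycle, so the arrest itself is known from the labels alone.

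More of the 154 measured arms were higher than lower on day 3. Levels are given as counts per 1000000 miRNA reads (CPM) after TMM scaling, which sets a trimmed mean of the log ratios to 0. An arm was called higher when its day 3 over day 0 ratio was at least 2 with the 95% interval above 1, and lower when the ratio was at most 0.5 with the interval below 1. By this rule 40 arms, or 26% of the 154, were higher on day 3, and 11 arms, or 7.14%, were lower. The limit of 100 reads was met by 149 arms on day 3 and by 113 on day 0. It thus admitted more arms through the day 3 library, which favours arms that were higher on day 3. Counts at other read minimums are given at the end. The log2 ratios ran between -1.90 and 4.26, with a median of 0.20. These are levels in pooled cells, in which a change in every cell and a change in a share of the cells cannot be told apart.

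**Figure D1:**
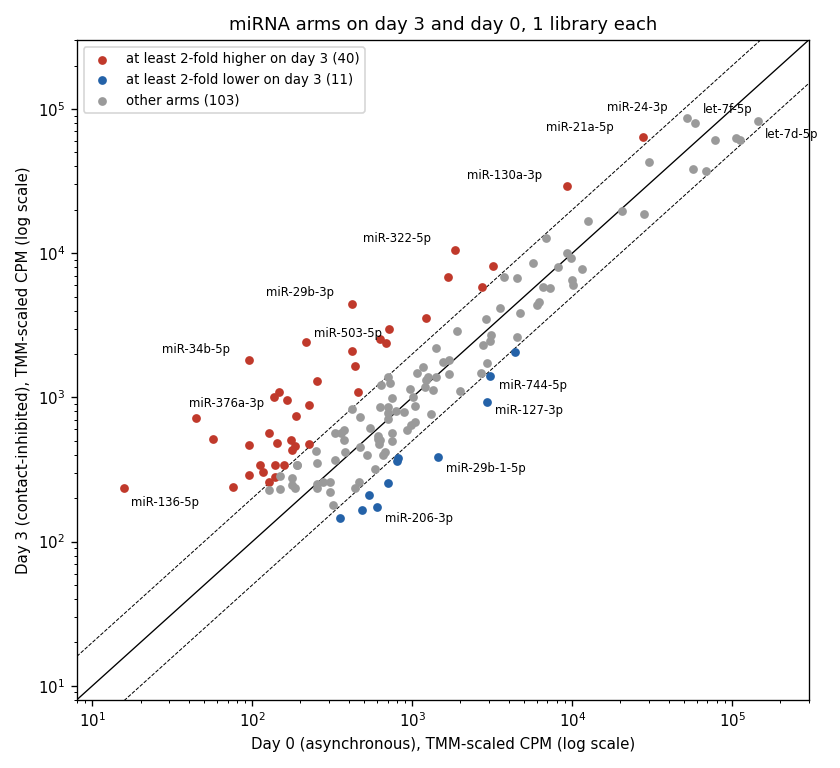
TMM-scaled level of each of the 154 arms on day 3 (vertical, log scale) against day 0 (horizontal, log scale), 1 library each. The solid line marks equal levels and the dashed lines 2-fold differences. The 40 red arms lie above the upper dashed line, and the 11 blue arms lie below the lower one.

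The threshold fell within a run of close values. miR-296-5p, at 2.01-fold (95% interval 1.41 to 2.90), was the last arm called higher. Just outside stood miR-466-3p/miR-466b-3p, counted together because their first 20 bases are the same, at 1.996-fold, and miR-140-5p at 1.97-fold (1.69 to 2.31). On the other side, miR-541-5p at 0.475 (0.436 to 0.516) was the last arm called lower, and miR-125b-1-3p at 0.535 (0.412 to 0.694) lay just outside.

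Since let-7 took more than 1 in 2 miRNA reads on day 0, several scalings were compared. Each moved all ratios together by 1 factor. Against the TMM scaling of the 2 libraries, the log2 ratios shifted by 0.10 when each arm was taken as a share of miRNA reads, and by -0.32 when let-7 was left out of that total. Scaling by all deposited reads shifted them by 0.41, scaling by inserts outside mature arms by 0.57, TMM over all 8 libraries by -0.20 and the median of ratios by 0.01. The inserts outside mature arms include other reads of miRNA hairpins, 27889 on day 3 and 16141 on day 0. Without let-7, 31 arms (20.1%) were higher and 26 (16.9%) lower. TMM over all 8 libraries gave 35 higher (22.7%) and 20 lower (13%), the median of ratios 41 (26.6%) and 11, and the share of miRNA reads 44 (28.6%) and 9 (5.84%). All deposited reads gave 61 higher (39.6%) and 5 lower (3.25%), and inserts outside mature arms 69 higher (44.8%) and 3 lower (1.95%). In every one of the 7 scalings 31 arms were called higher and 3 were called lower. The sign was positive throughout for 73 arms, negative throughout for 34 and dependent on the scaling for 47. Below, an arm whose sign depends on the scaling is named as such.

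**Figure D2:**
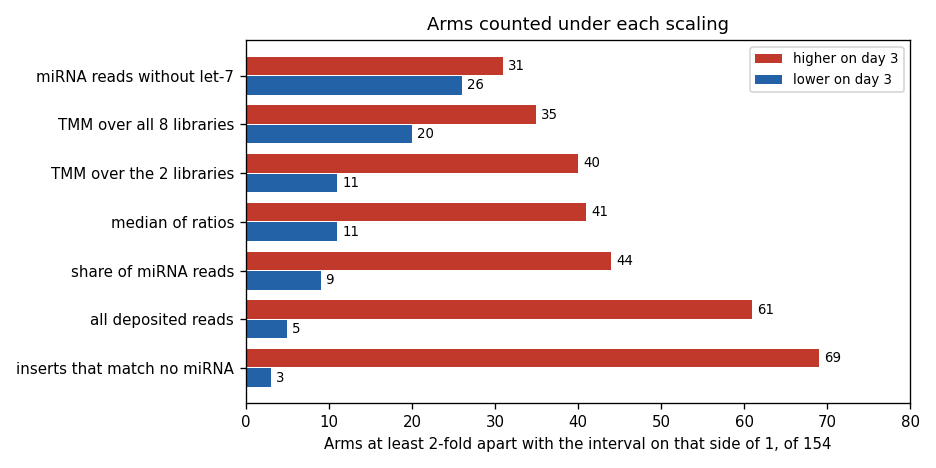
Number of the 154 arms called higher (red) and lower (blue) on day 3 under each of the 7 scalings, from the lowest to the highest shift. The counts run between 31 higher with 26 lower and 69 higher with 3 lower. The TMM scaling used in the text gives 40 and 11. The label for inserts that match no miRNA stands for inserts outside mature arms, which include other reads of miRNA hairpins.

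The let-7 family, which represses Ras, Hmga2 and cell-cycle genes and is processed under the control of Lin28, took a smaller share of miRNA reads on day 3 and changed in make-up. Its members and miR-98 made up 41.9% of miRNA reads on day 3 (95% Clopper-Pearson interval 41.7 to 42.0) and 56.5% on day 0 (56.4 to 56.7). The scaled ratio of the sum was 0.692 (0.688 to 0.696), and it depended on the scaling. It was 0.554 against miRNA reads without let-7 and 1.03 against inserts outside mature arms, where the direction turned. On day 5 the share was 33.4%.

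Its members differed by more than 3-fold in their ratios, a spread that no scaling can change. let-7b-5p (16831 reads on day 3, 21638 on day 0) and let-7a-5p (27572 and 35418 reads on the same days) had scaled ratios of 0.541 each. let-7d-5p, the most abundant arm of the day 0 library, had 37338 reads and 82284 CPM on day 3 against 45765 reads and 145086 CPM on day 0, a ratio of 0.567 (0.559 to 0.575). let-7c-5p lay at 0.597. These 4 arms were lower on day 3 under every scaling, though none reached 2-fold under the TMM scaling of the 2 libraries.

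let-7f-5p went the other way. It had 36402 reads (80222 CPM) on day 3 and 18367 reads (58228 CPM) on day 0, a ratio of 1.38 (1.35 to 1.40), and was higher under every scaling. Its share of the family's reads was 19.8% on day 3 and 9.95% on day 0, while that of let-7a-5p was 15.01% on day 3 and 19.2% on day 0. miR-98-5p, at 3085 reads on day 3 and 1174 on day 0, had the highest ratio of the family, 1.83 (1.707 to 1.955). let-7g-5p, at 1.17, let-7i-5p, at 0.938, and let-7e-5p, at 0.784, had signs that depended on the scaling.

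let-7a, let-7f and let-7d have neighbouring hairpins on chromosome 13, in an exon of the long noncoding RNA 6720427I07Rik, with let-7d-5p at chr13:48536078-48536099, let-7f-5p at chr13:48537889-48537910 and let-7a-5p at chr13:48538239-48538260, all on the minus strand of GRCm38.p6. let-7a and let-7f each have a further locus, so reads of those arms cannot be assigned to one hairpin. let-7i-5p was sensitive to counting. With 18 bases it had 8378 reads on day 3 and 4687 on day 0, and a ratio of 1.31 (1.26 to 1.36). That count adds reads that end before base 20 and reads that differ from the arm after base 18, which were not separated.

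**Figure D3:**
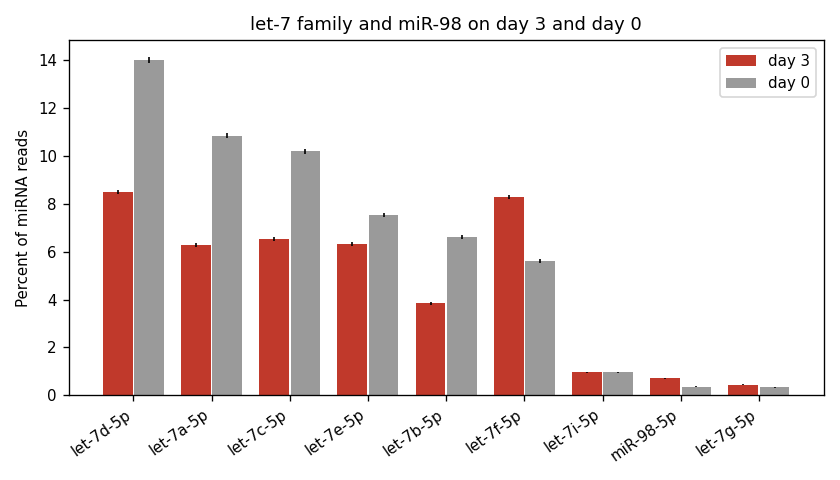
Share of miRNA reads taken by each let-7 arm and by miR-98-5p on day 3 (red) and day 0 (grey), with 95% Clopper-Pearson intervals as error bars. let-7d-5p stands at 8.51% on day 3 and 14.02% on day 0, while let-7f-5p stands at 8.30% on day 3 and 5.63% on day 0.

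The miR-322 and miR-503 cluster on the X chromosome and several arms with the miR-15/16 seed were higher on day 3. miR-322, which corresponds to miR-424 in humans, and miR-503 are known to repress Cdc25a and cyclin D1. miR-322-5p (chrX:53054306-53054327, minus strand, in no other annotated gene) had 4768 reads and 10508 CPM on day 3, and 581 reads and 1842 CPM on day 0, a ratio of 5.70 (5.23 to 6.23). For miR-503-5p (chrX:53054027-53054049) the library counts were 1104 reads on day 3 and 68 on day 0, a ratio of 11.3 (8.83 to 14.6). Both stood higher again on day 5, at 9.47-fold and 19.7-fold their day 0 levels.

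Of 13 arms listed for the cluster, 4 reached 100 reads, 3 of them were called higher, against 26% of all arms, and none lower, and their median log2 ratio was 2.08, against 0.20 over all 154 arms. miR-322-3p was also called higher, at 3.13-fold. miR-351-5p, whose seed is that of miR-125, lay at 0.847 (0.641 to 1.12), with a sign that depended on the scaling.

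The miR-15/16 family itself was mixed. Of its 4 measured arms, 2 were called higher, against 26% of all arms, and none lower, with a median log2 ratio of 0.99 against 0.20. miR-15a-5p had 754 reads (1662 CPM) on day 3 and 139 reads (441 CPM) on day 0, a ratio of 3.77 (3.14 to 4.55). miR-195a-5p, at 2.11-fold, also passed. miR-16-5p, the most abundant of them, had 5760 reads on day 3 and 2150 on day 0, a ratio of 1.86 (1.772 to 1.958), short of 2-fold but positive under every scaling.

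miR-15b-5p ran against its relatives, with 1185 reads (2611 CPM) on day 3 and 1430 reads (4533 CPM) on day 0, a ratio of 0.576 (0.533 to 0.623) that stayed under 1 in all scalings. miR-15a lies beside miR-16-1 on chromosome 14, whereas miR-15b-5p is at chr3:69009775-69009796, beside miR-16-2. Since miR-16-5p comes from both loci, its reads cannot be split between them. Summed over the 5 measured arms with the seed AGCAGCA, the share of miRNA reads was 2.91% on day 3 and 1.35% on day 0, a ratio of 2.01 (1.94 to 2.08).

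The miR-34 family, known as transcriptional targets of p53 that repress cyclins and Cdk genes, held the arm with the highest ratio of all. miR-34b-5p (chr9:51103610-51103632, minus strand, opposite to an intron of Btg4) had 827 reads and 1823 CPM on day 3, against 30 reads and 95.1 CPM on day 0, a ratio of 19.2 (13.3 to 28.6). miR-34c-5p, from the same cluster at chr9:51103077-51103098, had 1622 reads on day 3 and 383 on day 0, a ratio of 2.94 (2.63 to 3.30). The chromosome 4 member miR-34a-5p stood at 2.38-fold (1.97 to 2.89), with 493 reads on day 3 and 144 on day 0. Of the 4 measured arms 3 were called higher, against 26% of all arms, and none lower, with a median log2 ratio of 1.40 against 0.20. miR-449a-5p and miR-449c-5p, which share the seed, were at 0 in both libraries.

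The miR-17 to miR-92 cluster and its paralogs were higher on day 3 in part. Of 9 measured arms 5 were called higher, against 26% of all arms, and none lower, and their median log2 ratio was 1.80 against 0.20. miR-19a-3p had 235 reads on day 3 and 18 on day 0, a ratio of 9.08 (5.62 to 15.6). miR-18a-5p (438 reads on day 3, 52 on day 0) stood at 5.86-fold (4.39 to 7.96). miR-19b-3p and miR-20a-5p stood at 4.21-fold and 3.47-fold.

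Arms of the same primary transcript, the long noncoding RNA Mir17hg on chromosome 14, thus differed widely. miR-17-5p, with 3033 reads on day 3 and 1427 on day 0, had a ratio of 1.48 (1.39 to 1.57), lower than those of these 4 arms. miR-92a-3p, which also has a locus on another chromosome, had 1222 reads on day 3 and 977 on day 0 and a ratio of 0.869 (0.799 to 0.947), with a sign that depended on the scaling. The paralogous cluster on chromosome 5 showed a like spread. miR-106b-5p had 3104 reads on day 3 and 524 on day 0, a ratio of 4.12 (3.75 to 4.53), while its neighbours miR-93-5p and miR-25-3p lay at 1.21 and 1.11 with signs that depended on the scaling. On day 5 miR-106b-5p was at 1.33-fold and miR-93-5p at 0.307-fold of day 0.

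In the miR-29 family, known for repressing collagen and other matrix genes, the members parted. The arms of the Mir29a hairpin parted too, with a 5p to 3p odds ratio, day 3 over day 0, of 2.42 (1.94 to 3.01). miR-29b-3p had 2016 reads and 4443 CPM on day 3, against 133 reads and 422 CPM on day 0, a ratio of 10.5 (8.84 to 12.7). miR-29c-3p (946 reads on day 3, 132 on day 0) had a ratio of 4.98 (4.15 to 6.02). miR-29a-3p, the most abundant, had 8433 reads and 18584 CPM on day 3, against 8917 reads and 28269 CPM on day 0, a ratio of 0.657 (0.638 to 0.677) that stayed under 1 in all scalings. Because miR-29a-3p outweighed the others, the sum of the 3 main arms had a ratio of 0.863 (0.839 to 0.887), while their median log2 ratio was 2.32. The sign of the sum depended on the scaling.

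miR-29b-1-5p, the opposite arm of 1 of the 2 miR-29b hairpins, had the lowest ratio of the 154 arms. It had 176 reads and 388 CPM on day 3, against 456 reads and 1446 CPM on day 0, a ratio of 0.268 (0.224 to 0.320), and on day 5 it had 24 reads, at 0.0392 of its day 0 level. It maps to chr6:31063067-31063088, on the minus strand beside miR-29a at chr6:31062673-31062694. The miR-29b-3p arm is shared with the hairpin next to miR-29c on chromosome 1 (chr1:195037091-195037113), in an exon of the noncoding transcript A330023F24Rik, so its reads cannot be assigned to either.

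**Figure D4:**
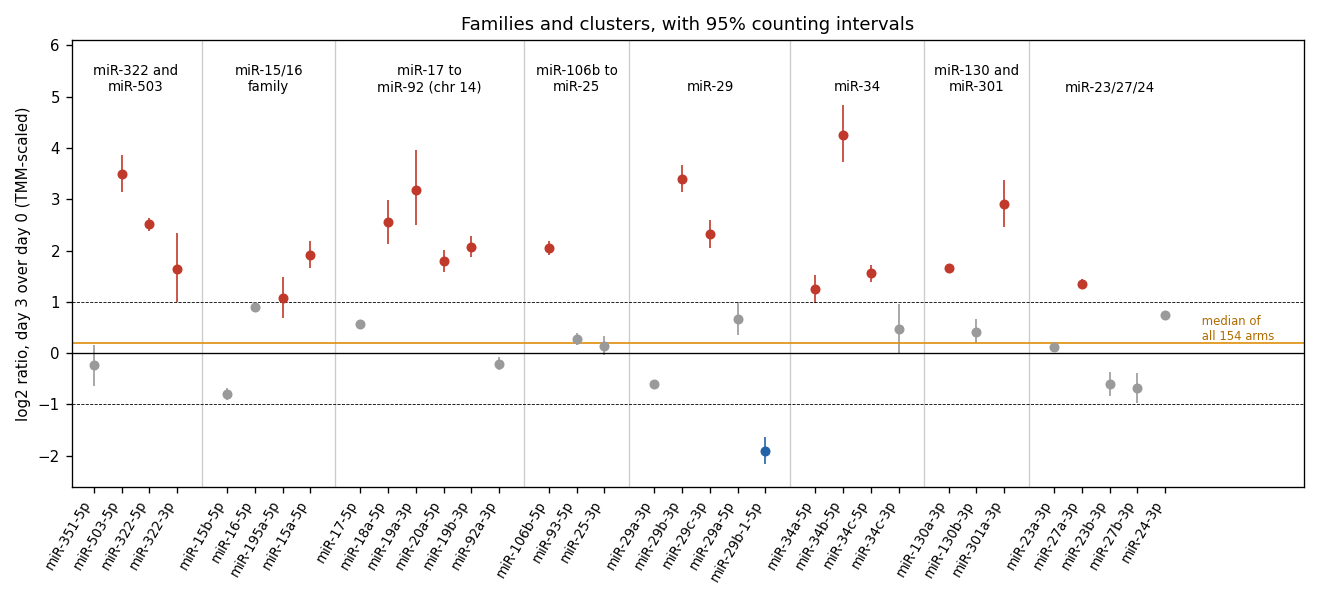
Log2 ratio, day 3 over day 0, of measured arms in 8 families or clusters, with 95% counting intervals. Red arms were called higher, the blue arm lower, grey arms neither; dashed lines mark 2-fold and the orange line the median of all 154 arms, 0.20. In most groups some members lie above the upper dashed line and others near or below 0, such as miR-29b-3p at 3.40 and miR-29a-3p at -0.61. miR-19b-3p and miR-92a-3p also have a locus outside the chromosome 14 cluster.

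The miR-130 and miR-301 family was higher as a group: its 3 measured arms all had positive log2 ratios with a median of 1.66 against 0.20 over all arms, and 2 were called higher, against 26% of all arms. miR-130a-3p, among the abundant miRNAs here, had 13354 reads and 29429 CPM on day 3, against 2932 reads and 9295 CPM on day 0, a ratio of 3.17 (3.04 to 3.30). miR-301a-3p, from an intron of Ska2 (chr11:87113054-87113076), had 496 reads on day 3 and 46 on day 0, a ratio of 7.50 (5.53 to 10.4). miR-130b-3p lay at 1.34 and was positive in every scaling, but at 0.964 when the whole insert had to be identical to the mature sequence. Together the seed AGUGCAA took 3.27% of miRNA reads on day 3 and 0.988% on day 0.

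miR-26 and miR-101, both known to repress Ezh2, gave 2 higher arms of 3 measured, against 26% of all arms, with a median log2 ratio of 1.105 against 0.20. miR-101b-3p (an intron of Rcl1, chr19:29135338-29135356) had 458 reads on day 3 and 43 on day 0, a ratio of 7.40 (5.41 to 10.4). It was counted 1 base downstream of the RefSeq start, where most of its reads began. miR-26b-5p stood at 2.15-fold, while the more abundant miR-26a-5p stood at 1.33-fold (1.28 to 1.38).

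Among miRNAs known to be induced by serum or growth factors, miR-21a-5p stood out by abundance. This repressor of Pdcd4, located in an exon of Vmp1 (chr11:86584120-86584141), had 28909 reads and 63709 CPM on day 3, against 8723 reads and 27654 CPM on day 0, a ratio of 2.30 (2.25 to 2.36), and 59409 reads on day 5. The ratio was 1.84 when scaled by miRNA reads without let-7, under the 2-fold limit. Of the 4 measured arms on that list 1 was called higher, against 26% of all arms, and none was called lower. miR-155-5p lay at 0.548 (0.494 to 0.607) and miR-31-5p at 1.53 (1.39 to 1.69). miR-146b-5p, at 1.11, had a sign that depended on the scaling.

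The fibroblast or mesenchymal list, which shares miR-21a-5p, had 8 measured arms, 2 higher and 1 lower, against 26% and 7.14% of all arms, with a median log2 ratio of 0.11 against 0.20. miR-199a-3p/miR-199b-3p, identical over the bases counted, had 8944 reads (19710 CPM) on day 3 and 6446 reads (20435 CPM) on day 0, a ratio of 0.965 (0.934 to 0.996) whose sign depended on the scaling. On day 5 the same arms had 74449 reads, 8.59-fold (8.38 to 8.82) their day 0 level. miR-143-3p gave 1.52-fold on day 3 and 5.50-fold on day 5, each over day 0, while miR-145a-5p, its cluster partner, lay at 0.453 on day 3 and 0.376 on day 5. For miR-199a-3p/miR-199b-3p and miR-143-3p, day 3 was thus nearer to day 0 than day 5 was. Besides miR-21a-5p, the arm called higher was miR-199b-5p, with 155 reads on day 3, 50 on day 0 and 515 on day 5. miR-214-3p had 2645 reads on day 3, 2057 on day 0 and 793 on day 5. Its scaled day 3 over day 0 ratio was 0.894 (0.843 to 0.947), with a sign that depended on the scaling.

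miR-24-3p was the most abundant arm on day 3, with 39369 reads and 86760 CPM, against 16373 reads and 51906 CPM on day 0, a ratio of 1.67 (1.64 to 1.70). It is a repressor of E2f2 and Myc that is made from a pair of clusters with miR-23 and miR-27. In those clusters 1 of 5 measured arms was called higher, miR-27a-3p at 2.54-fold (2.37 to 2.73), and none lower, against 26% and 7.14% of all arms, with a median log2 ratio of 0.11 against 0.20. miR-23a-3p, from the same transcript as miR-27a, had a ratio of 1.08 whose sign depended on the scaling, and miR-27b-3p and miR-23b-3p, from the other cluster, lay at 0.626 and 0.657.

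The miR-99, miR-100 and miR-125 list, which includes the mammalian relatives of lin-4, had 4 measured arms. None was called higher or lower, against 26% and 7.14% of all arms, and their median log2 ratio was -0.65 against 0.20. miR-125b-5p had 17482 reads (38526 CPM) on day 3 and 17942 reads (56881 CPM) on day 0, a ratio of 0.677 (0.663 to 0.692). The ratio became 1.004 when scaled by inserts outside mature arms. The cell-cycle pair miR-221-3p and miR-222-3p, known repressors of the Cdk inhibitor p27, lay at 0.651 and 0.674, with 2935 and 3518 reads on day 3 and 3134 and 3628 reads on day 0.

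The miR-30 and miR-181 families were mixed. Of the miR-30 family, 1 of 3 measured arms was called higher, against 26% of all arms: miR-30a-5p, at 2.43-fold, while miR-30c-5p lay at 0.559. No arm of the miR-181 family was called higher or lower, among 4 measured, against 26% and 7.14% of all arms. Of the 4, 3 had positive log2 ratios, and their median log2 ratio was 0.46 against 0.20. miR-103-3p/miR-107-3p, counted together, stood at 1.41-fold (1.38 to 1.45) with 19321 reads on day 3 and 9512 on day 0.

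The imprinted Dlk1-Dio3 locus on chromosome 12, which carries many miRNA hairpins on the maternal transcript, held arms at both ends of the range. Of 31 measured arms on the list for the locus, 8 were higher and 2 lower, against 26% and 7.14% of all arms, and the median log2 ratio was -0.10, with a sign that depended on the scaling. The list includes miR-342-3p, which lies outside the locus in an intron of Evl, and leaves out miR-666-5p and miR-3072-5p, which lie within it. None of these 3 arms was called, at ratios of 0.989, 1.28 and 1.55. The sign of the first, miR-342-3p, depended on the scaling. miR-376a-3p (chr12:109723824-109723844) had 324 reads on day 3 and 14 on day 0, a ratio of 16.1 (9.45 to 29.8). miR-136-5p, with 107 reads on day 3 and 5 on day 0, had a ratio of 14.9, and its interval of 6.18 to 46.7 shows how little 5 reads fix it. miR-299a-3p (1151 reads on day 3, 198 on day 0) stood at 4.04-fold.

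At the lower end of the locus was miR-127-3p, with 419 reads and 923 CPM on day 3, against 921 reads and 2920 CPM on day 0, a ratio of 0.316 (0.281 to 0.355). On day 5 it had 1814 reads, 1.47-fold (1.35 to 1.59) its day 0 level. miR-127 and miR-136 both lie antisense to an exon of Rtl1, whose messenger RNA they are known to target, at chr12:109592888-109592909 and chr12:109595331-109595352. The pair thus had ratios on opposite sides of 1 on day 3. miR-541-5p, in an intron of the noncoding Mirg, was the other lower arm, at 0.475.

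The intronic Sfmbt2 cluster gave 1 higher and 1 lower arm of 4 measured, against 26% and 7.14% of all arms. miR-466-3p/miR-466b-3p and miR-466d-3p have 13 loci each and miR-467a-5p/miR-467b-5p has 11. Reads of these arms cannot be assigned to 1 hairpin, and their values are uncertain. miR-669c-5p, an arm added from its reads, has 1 locus. miR-669c-5p had 75 reads on day 3 and 153 on day 0, a ratio of 0.341 (0.255 to 0.452), while miR-467a-5p/miR-467b-5p stood at 2.05-fold.

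Among the lower arms outside these loci, miR-206-3p, a miRNA of skeletal muscle and myoblasts, had 79 reads (174 CPM) on day 3 and 190 reads (602 CPM) on day 0, a ratio of 0.289 (0.219 to 0.378). miR-574-5p, from an intron of Fam114a1 (chr5:64970328-64970350), had 116 reads on day 3 and 223 on day 0, a ratio of 0.362. The rest were miR-28a-3p (0.395), miR-148b-3p (0.410), miR-744-5p (0.461) and miR-151-3p (0.469). miR-148b-3p rested on 66 reads on day 3 and 112 on day 0. On day 5 it was at 1.41 of its day 0 level (1.11 to 1.79), and so, with miR-127-3p, above day 0 where the other 9 lower arms were below it.

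Among higher arms outside the listed families, miR-193a-3p had 586 reads on day 3 and 80 on day 0, a ratio of 5.09 (4.03 to 6.52). miR-671-5p and miR-340-5p stood at 4.89-fold and 4.47-fold. Each of the 12 arms with the highest ratios was also above its day 0 level on day 5, at between 2.86-fold for miR-193a-3p and 33.6-fold for miR-136-5p. Both comparisons use the same day 0 library, so a low count there raises both ratios. Each has its own TMM scaling, so the ratios of an arm are not on a common scale. For miR-34b-5p they were 19.2 on day 3 and 17.1 on day 5, while day 5 over day 3 was 1.03.

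**Figure D5:**
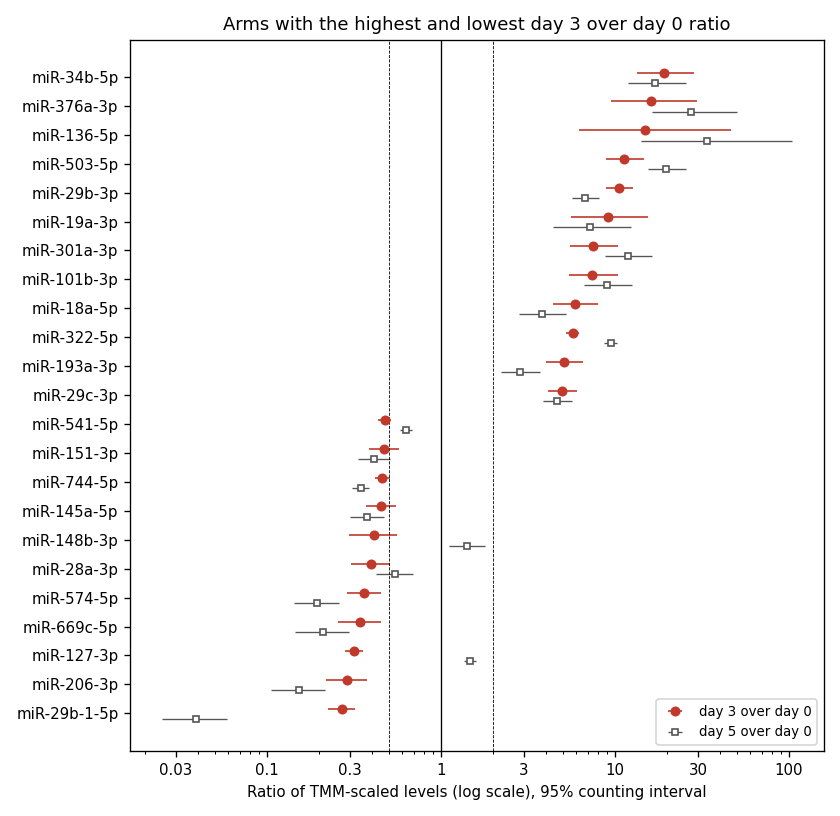
Ratios over day 0 of the 12 arms with the highest ratio and the 11 called lower on day 3 (log scale, 95% counting intervals). Filled red points are day 3 over day 0 and open grey squares day 5 over day 0. They share the day 0 library, but each comparison has its own TMM scaling. Dashed lines mark 2-fold. miR-127-3p and miR-148b-3p lie below 0.5 on day 3 and above 1 on day 5, and miR-29b-1-5p lies at 0.268 on day 3 and 0.0392 on day 5.

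The balance of the arms within a hairpin does not depend on scaling. Of 54 hairpins with enough reads of both arms, 25 (46.3%) changed by at least 2-fold in the odds of 5p to 3p reads with the interval on that side of 1, 12 to more 5p and 13 to more 3p. Mir34b changed most: its 5p arm made up 97.1% of 827 and 25 reads (5p and 3p) on day 3, and 48.4% of 30 and 32 reads on day 0, an odds ratio of 35.3 (18.7 to 66.8). The difference of miR-34b-5p was 19.2-fold after scaling. Its 3p arm had 25 reads on day 3 and 32 on day 0, unscaled and with the day 3 library the larger. Mir193a went to the other arm, with 31.4% 5p reads on day 3 and 78.6% on day 0.

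In the Dlk1-Dio3 locus, Mir541 had 97.0% 5p reads on day 3 and 99.8% on day 0, resting on 29 and 3 reads of the 3p arm. Mir377 had 4.11% on day 3 and 20.5% on day 0, and Mir299a 7.99% on day 3 and 32.7% on day 0. Mir27a, on chromosome 8, had 1.20% on day 3 and 6.04% on day 0. These 6 hairpins had the largest changes in either direction, and in 5 of them the balance moved towards the 3p arm.

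The ratios were set against base composition, and insert lengths were compared between the days. Across the 154 arms, the GC content of the 20 counted bases and the log2 ratio had a Pearson correlation of -0.25 and a Spearman correlation of -0.30, given as a description since all arms share the same pair of libraries. The median GC content was 40% for the higher arms, 50% for the lower and 45% for all. Among 47 arms with at least 500 reads in both libraries, the mean insert was shorter on day 3 for 28 and longer for 5, with the interval on that side of 0. The differences were small, between -0.42 nt for miR-30c-5p and 0.12 nt for miR-744-5p, with a median of -0.06 nt. For miR-130a-3p, inserts of 20 nt made up 50.7% of reads on day 3 and 38.7% on day 0. The part of base composition in the ratios was not tested.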

How the data were processed

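Total RNA of NIH-3T3 cells was made into small RNA libraries by a protocol for which the labels cite an earlier paper. The authors deposited, for each library, distinct 36-nt reads with their counts and the 3′ adapter still attached; their aligner, filters and build were not given in the sources used here. Adapters were found in the reads and removed (at least 6 bases, 1 mismatch per 8), and inserts of 16 to 30 nt kept. A read was counted for an arm when its first 20 bases were identical to it. Arms came from RefSeq (631 with reads), with 59 added from GENCODE M21 or RefSeq hairpins by their reads (at least 10 reads, 50% at 1 5′ end); 33 were counted at another 5′ end, shifted by at most 3 nt. Positions are GRCm38.p6, 1-based; 62 arms have more than 1 locus, and only the first is given.

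Counts were scaled by TMM factors (edgeR 4.0.16, R 4.3.3), computed for each pair of libraries compared, with DESeq2 1.42.0 size factors as an alternative. Ratios carry 95% exact conditional binomial intervals, shares Clopper-Pearson intervals, and odds ratios intervals from the log odds. Reads have no molecular identifiers, so intervals cover counting error only. The rest used Python 3.11.15 with pandas 2.3.3, scipy 1.17.1, numpy 2.4.6 and matplotlib 3.10.9. The code for the ratio calls was run on simulated counts with known ratios, scaled by their true factor. That run covers neither the choice of scaling nor differences between cultures or library preparations. Each day has 1 library, with no test. Hairpins needed 20 pooled reads of each arm and 100 of one arm in either library. Arms named are the 12 highest and all lower ones, the 8 most abundant in each library, measured members of the lists and the 6 hairpins with the largest arm change; others named were chosen after their values were seen. Members, lists and rules were chosen with earlier results of these data known.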

Additional observations from a re-analysis of the deposited data

How the results depend on the processing

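No paired analysis was possible because each day has 1 library and the labels give no replicate numbers. The counts of higher and lower arms depended on scaling. They were 61 and 5 with all deposited reads and 69 and 3 with inserts outside mature arms. There were 26 lower arms with miRNA reads without let-7 and 20 with TMM over all 8 libraries. In both, the higher arms stayed within 1.5 times of 40. Lower arms numbered 17 of 193 with a minimum of 50 reads. A minimum of 500 reads gave 16 higher and 3 lower of 71 arms, and no minimum 66 and 31 of 551. A 1.5-fold limit gave 61 and 32, a 3-fold limit 26 and 3. Whole inserts identical to the mature sequence gave 21 higher of 82 arms and 8 changed hairpins of 20, fewer arms being measured.

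The let-7 ratio was 0.741 as a share of miRNA reads, 0.554 without let-7 in the total and 0.922 with all deposited reads. It was 0.603 with TMM over all 8 libraries, 0.697 with the median of ratios and 1.03, and so reversed, with inserts outside mature arms. With 18 bases the let-7 ratio was 0.738, with whole inserts 0.633 and with inserts of 20 to 24 nt 0.679. Its share on day 3 and day 0 was 42.1% and 56.4% with 18 bases, 51.9% and 63.5% with whole inserts, and 42.3% and 57.1% with inserts of 20 to 24 nt.

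Of 815 other values for 95 named arms, 448 moved by less than the counting interval, 340 by more and 27 turned direction. These 27 leave out turns of arms such as miR-351-5p, miR-25-3p and miR-146b-5p, whose signs also depended on the scaling. The next values are with all deposited reads and with inserts outside mature arms, in that order. let-7e-5p became 1.04 and 1.16, let-7i-5p 1.25 and 1.39, miR-181a-5p 1.11 and 1.23, and miR-199a-3p/miR-199b-3p 1.29 and 1.43. miR-214-3p became 1.19 and 1.32, miR-30d-5p 1.14 and 1.27, miR-411-5p 1.095 and 1.22, and miR-92a-3p 1.16 and 1.29. Inserts outside mature arms also turned miR-125b-5p to 1.004 and miR-99b-5p to 1.096. miR-199a-3p/miR-199b-3p became 1.03 and let-7i-5p 1.004 as a share of miRNA reads, and 1.02 and 1.31 with 18 bases. miR-23a-3p became 0.865 without let-7 and 0.941 with TMM over all 8 libraries, and miR-93-5p 0.971 and let-7g-5p 0.939 without let-7. miR-130b-3p became 0.964 with whole inserts, where the cause was not tested. A scaling moves all ratios by 1 factor, which accounts for the turns it brought. Thinning day 3 to the miRNA reads of day 0 gave 36 higher and 11 lower of 140 arms. With 1 library a day, differences between cultures or library preparations cannot be told apart from those between days.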
